A study of Mus musculus with 2 samples.

Results

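Amino acid transporter genes of the solute carrier families Slc1, Slc3, Slc7, Slc36, Slc38 and Slc43 were described in untransformed mouse myeloid progenitors. The members were all genes whose symbol is one of these family names followed by a member number, and 42 of the 23988 genes in the table met this rule. The cells came from lineage-negative bone marrow of C57BL/6 mice, were kept 7 days with IL3, SCF and IL6, and received no treatment. The title of the series names HOXA9/MEIS1 leukaemia cells, and these were not analysed here. The labels give 1 group of 2 libraries, called replicate 2 and replicate 1, and nothing in them tells whether these were separate cultures, animals or pools, so the spread may be technical. Values are RPKM, in which the reads of a gene are scaled by its length and by the size of the library, so levels of genes are compared per length. No test was made, since the smallest p that exact sign flips of 2 libraries allow is 0.5, and a difference between the libraries has no replicate check.

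Cells import amino acids through carriers that either exchange one amino acid for another or use the gradient of sodium or protons. Some exchangers are dimers, in which a glycoprotein heavy chain of Slc3 brings a transporting light chain of Slc7 to the membrane. Carriers in the lysosome return amino acids from broken-down protein to the cytosol and inform the growth kinase mTORC1. Dividing myeloid cells draw on leucine and glutamine for growth, on cystine for glutathione and on arginine, which macrophages turn into nitric oxide or ornithine.

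The libraries carried the markers that their label implies. The 7 genes of neutrophil primary granules and their regulators were all at 1 RPKM or more in both libraries (beside 43.5% of all genes). Their medians were 508 RPKM in replicate 2 and 753 RPKM in replicate 1. So were all 8 progenitor genes, with medians of 60.8 RPKM in replicate 2 and 59.1 RPKM in replicate 1. Of the markers of other cells, the T cell genes Cd3e and Cd4 and the B cell genes Ms4a1, Pax5 and Ebf1 were listed at 0 in both libraries, as were the haemoglobin genes Hbb-b1 and Hba-a1, whose copies may share reads. Pecam1, which myeloid cells also express, was the only one of 8 genes of stroma and endothelium at 1 RPKM or more (beside 43.5% of all genes). Genes of other myeloid cells were higher in replicate 2. The 12 genes of monocytes and macrophages were all higher there, beside 44.1% of all genes whose mean reached 1 RPKM. They summed to 3371 RPKM in replicate 2 and 911 RPKM in replicate 1. All 7 MHC class II genes were likewise higher (beside the same 44.1%), with sums of 1272 RPKM in replicate 2 and 186 RPKM in replicate 1. Of the 10 mast cell genes, the 7 whose mean reached 1 RPKM were all higher in replicate 2 (beside 44.1% of all genes). Kit was the least different of these 7, at 26.2 RPKM in replicate 2 and 21.2 RPKM in replicate 1. The 10 genes summed to 799 RPKM in replicate 2 and 34.5 RPKM in replicate 1. The 6 basophil genes summed to 2060 RPKM in replicate 2 and 1054 RPKM in replicate 1. The 13 glycolysis genes, all higher in replicate 2 (beside 44.1% of all genes), summed to 10067 RPKM in replicate 2 and 5327 RPKM in replicate 1. None of these lists had a member at 0 in both libraries. In bulk RNA, fewer cells of a type and less RNA per cell cannot be told apart.

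Of the 42 members, 21 (50%) reached 1 RPKM in both libraries, beside 43.5% of all genes. These 21 include at least 1 member of 8 of the 10 roles. Another 12 lay under 1 RPKM in both libraries and above 0 in at least 1 of them, with 4 of these 12 listed at 0 in the other, 8 were listed at 0 in both (19.0%, beside 30.1% of all genes), and Slc36a2 alone passed 1 RPKM in a single library. The median member stood at 1.48 RPKM in replicate 2 and 0.870 RPKM in replicate 1, and the median of all genes at 0.483 RPKM in replicate 2 and 0.318 RPKM in replicate 1. All members together held 0.103% of the summed RPKM in replicate 2 and 0.112% in replicate 1. The 5 highest members, Slc7a8, Slc7a5, Slc1a5, Slc3a2 and Slc36a1, held 53.7% of the members' sum in replicate 2 and 56.8% in replicate 1. These 5 cover leucine exchange, glutamine uptake, the heavy chain of the exchangers and export from lysosomes. An exact 0 is given as listed at 0, since Hmgcs1, which most cells need to make cholesterol, was also at 0 in both libraries.

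**Figure D1:**
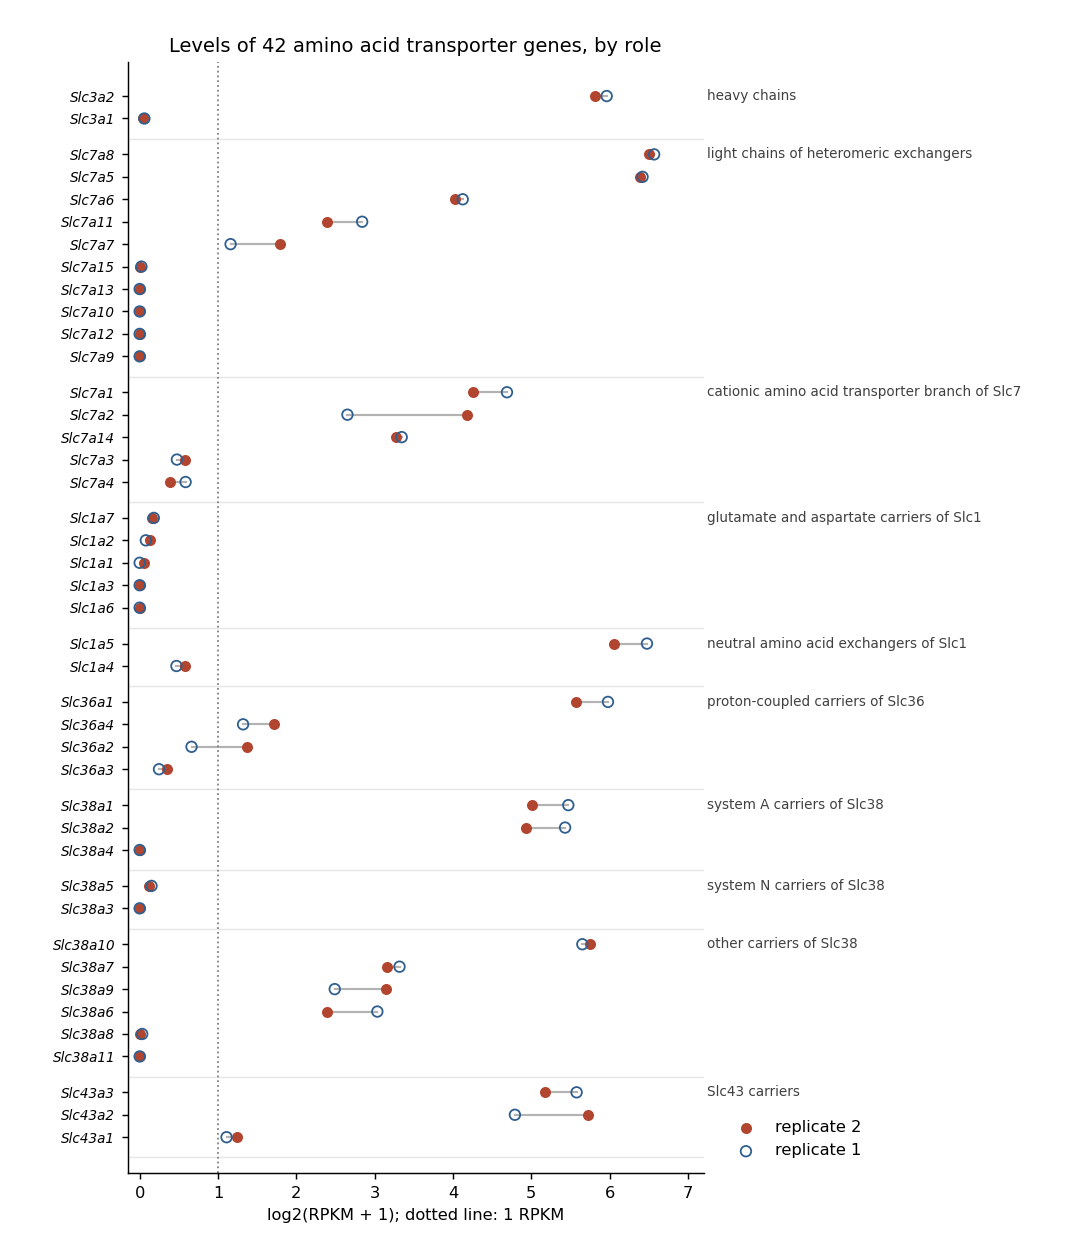
Levels of the 42 amino acid transporter genes in replicate 2 (filled) and replicate 1 (open) as log2(RPKM + 1), grouped by role and ordered by mean RPKM within each role. The 21 genes at 1 RPKM or more in both libraries lie right of the dotted line, and Slc7a8 is the highest at 89.3 RPKM in replicate 2 and 93.9 RPKM in replicate 1.

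The heavy chain of CD98 and the leucine exchangers it carries were among the highest members. Slc3a2, which encodes that heavy chain, stood at 55.5 RPKM in replicate 2 and 61.4 RPKM in replicate 1. Slc3a1, the heavy chain that kidney and intestine use for cystine uptake, stood at 0.0266 RPKM in replicate 2 and 0.0426 RPKM in replicate 1, from at least 3 reads in replicate 2 and 5 in replicate 1. The difference of Slc3a2 minus Slc3a1 was 5.84 ± 0.09 (SD, n = 2) on the log2(RPKM + 1) scale. The transcripts of Slc3a1 overlap those of Prepl, which stood at 6.06 RPKM in replicate 2 and 5.59 RPKM in replicate 1. The labels do not state a strand setting, and reads of overlapping genes may be shared or lost.

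Among the light chains, Slc7a8 and Slc7a5 were the highest. Slc7a8 encodes LAT2, an exchanger of small and large neutral amino acids, and stood at 89.3 RPKM in replicate 2 and 93.9 RPKM in replicate 1 (mean 91.6 ± 3.25, SD, n = 2). Slc7a5 encodes LAT1, which takes up leucine and other large neutral amino acids, and stood at 82.7 RPKM in replicate 2 and 84.7 RPKM in replicate 1 (mean 83.7 ± 1.40, SD, n = 2). Both lay above 95% of all genes in each library. Slc7a8 was the higher of the pair in both libraries, and Slc7a5 minus Slc7a8 was -0.13 ± 0.03 (SD, n = 2) on the log2(RPKM + 1) scale, a gap so small that the gene lengths behind the RPKM values, which are not given, could decide it. The pair held 88.6% of the summed RPKM of the 6 light chains that pair with Slc3a2 in replicate 2 and 88.2% in replicate 1. That sum was 194 RPKM in replicate 2 and 202 RPKM in replicate 1, so Slc3a2 stood at 0.286 times its light chains in replicate 2 and 0.303 times in replicate 1, a log2 ratio of -1.76 ± 0.06 (SD, n = 2). Against Slc7a5 alone the log2 ratio was -0.52.

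The other light chains were lower. Slc7a6, encoding an exchanger of the y+L type that releases arginine and lysine against neutral amino acids and sodium, stood at 15.3 RPKM in replicate 2 and 16.4 RPKM in replicate 1. Slc7a7, its close relative, whose human gene is mutated in lysinuric protein intolerance, stood at 2.47 RPKM in replicate 2 and 1.24 RPKM in replicate 1. Slc7a6 exceeded Slc7a7 in both libraries, with a difference of 2.60 ± 0.51 (SD, n = 2) on that log2 scale. Slc7a7 overlaps Oxa1l, which stood at 34.2 RPKM in replicate 2 and 38.9 RPKM in replicate 1. Slc7a11 encodes xCT, which imports cystine for glutamate, and stood at 4.23 RPKM in replicate 2 and 6.16 RPKM in replicate 1. Slc7a11 minus Slc7a8 was -3.92 ± 0.27 (SD, n = 2) on the same scale. Slc7a9, the partner of Slc3a1, and Slc7a10 and Slc7a12, exchangers of small neutral amino acids, were listed at 0 in both libraries. Slc7a13 and Slc7a15 rested on at least 1 read each, Slc7a13 in replicate 2 and Slc7a15 in replicate 1.

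The promoters of the 3 members that hold the core of a C/EBP-ATF element are shown because this element is the site through which ATF4 acts on genes of amino acid supply. Promoters of 31 of the 42 members were found in the RefSeq table (GRCm38.p6), each running from 250 bases before to 50 after the start. Searched on both strands for TGATGNAA, 3 of the 31 genes (9.68%) held it, beside 4.51% of all genes with a promoter and 4.13% of the protein-coding ones. Slc7a7 has several annotated starts, of which 1 is shown. The capitals mark the matches, and each sequence reads 5′ to 3′ on the strand of the gene, which is the minus strand for all 3. They lie at chr3:50443564-50443863 for Slc7a11, chr14:54417895-54418194 for Slc7a7 and chr11:20332664-20332963 for Slc1a4, the gene of a neutral amino acid exchanger described further on.
Slc7a11: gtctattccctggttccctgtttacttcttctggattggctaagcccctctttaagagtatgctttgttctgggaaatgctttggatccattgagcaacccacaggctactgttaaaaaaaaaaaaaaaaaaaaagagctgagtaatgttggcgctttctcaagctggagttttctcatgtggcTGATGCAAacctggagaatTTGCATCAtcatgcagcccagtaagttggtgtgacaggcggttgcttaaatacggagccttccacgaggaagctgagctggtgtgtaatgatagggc
Slc7a7: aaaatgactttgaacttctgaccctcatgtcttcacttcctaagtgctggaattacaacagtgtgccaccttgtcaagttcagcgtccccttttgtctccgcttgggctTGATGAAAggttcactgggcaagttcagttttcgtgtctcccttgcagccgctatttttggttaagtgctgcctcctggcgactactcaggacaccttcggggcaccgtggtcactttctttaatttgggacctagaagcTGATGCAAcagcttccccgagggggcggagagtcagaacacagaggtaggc
Slc1a4: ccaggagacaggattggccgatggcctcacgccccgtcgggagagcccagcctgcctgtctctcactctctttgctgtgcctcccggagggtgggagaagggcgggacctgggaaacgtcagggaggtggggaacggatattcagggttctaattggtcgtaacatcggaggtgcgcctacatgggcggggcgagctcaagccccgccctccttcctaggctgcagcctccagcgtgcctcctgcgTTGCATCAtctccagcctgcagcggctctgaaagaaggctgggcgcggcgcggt
In Slc7a11 the matches face each other, TGATGCAA from base -66 and TTGCATCA from base -47, counted from the start site. In Slc7a7 they begin at bases -141 and -1, and in Slc1a4 at base -4. With only the bases before the start, Slc1a4 no longer held a match and 2 genes remained. The 3 genes were expressed at different levels: the mean over both libraries was 5.20 RPKM for Slc7a11, 1.85 RPKM for Slc7a7 and 0.440 RPKM for Slc1a4. A match is a description of letters and no sign of binding. The core of the antioxidant response element, TGACNNNGC, was found in 5 of the 31 genes (16.1%, beside 14% of all and 14.8% of protein-coding genes), namely Slc36a1, Slc38a2, Slc43a1, Slc7a1 and Slc7a6. The E-box CACGTG was found in 7 (22.6%, beside 8.09% of all and 8.91% of protein-coding genes). These were Slc1a6, Slc1a7, Slc36a1, Slc38a5, Slc38a7, Slc43a1 and Slc7a14. Their mean levels ran from 0 RPKM for Slc1a6 to 54.4 RPKM for Slc36a1, which held matches at bases -31 and -3. Slc1a7, at a mean of 0.123 RPKM, and Slc38a5, at 0.0997 RPKM, were also near 0. The promoters of Slc7a5, Slc1a5, Slc7a2 and 8 others were not analysed here.

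Of the carriers of arginine and lysine, Slc7a1 was the higher in both libraries and Slc7a2 the more different between them. Slc7a1 encodes CAT1, the general carrier of cationic amino acids and the receptor of ecotropic murine leukaemia virus, and stood at 18.2 RPKM in replicate 2 and 24.8 RPKM in replicate 1. Slc7a2, whose product CAT2 supplies arginine to activated macrophages, stood at 17.1 RPKM in replicate 2 and 5.29 RPKM in replicate 1, from at least 2179 reads in replicate 2 and 700 in replicate 1. Slc7a2 was thus nearly level with Slc7a1 in replicate 2 and well below it in replicate 1. It held 48.5% of the sum of both in replicate 2 and 17.6% in replicate 1, and Slc7a1 minus Slc7a2 was 1.06 ± 1.38 (SD, n = 2) on the log2(RPKM + 1) scale, smaller than the spread. Slc7a14, which encodes a lysosomal protein known mainly from the nervous system and retina, stood at 8.63 RPKM in replicate 2 and 9.17 RPKM in replicate 1. Its RefSeq model overlaps 2 noncoding genes, Gm33834 and Gm15496. Slc7a3 and Slc7a4 lay between 0.309 and 0.502 RPKM in both libraries, and Slc7a3 overlaps Snx12, which stood at 21.4 RPKM in replicate 2 and 25.05 RPKM in replicate 1.

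Of the Slc1 family, the glutamine carrier was high and the glutamate carriers were close to 0. Slc1a5 encodes ASCT2, a sodium-dependent exchanger of glutamine and other neutral amino acids, and stood at 65.8 RPKM in replicate 2 and 88.1 RPKM in replicate 1. Slc1a4, which encodes ASCT1, an exchanger of alanine, serine and cysteine, stood at 0.495 RPKM in replicate 2 and 0.385 RPKM in replicate 1. Slc1a5 minus Slc1a4 was 5.75 ± 0.37 (SD, n = 2) on the log2(RPKM + 1) scale. The 5 genes of glutamate and aspartate carriers, best known from brain and retina, reached at most 0.113 RPKM in replicate 2 and 0.133 RPKM in replicate 1, both values being those of Slc1a7. Slc1a3 and Slc1a6 were listed at 0 in both libraries, and Slc1a1 in replicate 1 alone.

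Both widely expressed system A carriers, which bring in glutamine and alanine with sodium, were expressed at nearly equal levels. Slc38a1 stood at 31.3 RPKM in replicate 2 and 43.4 RPKM in replicate 1. Slc38a2, which is known to be induced when amino acids are short, stood at 29.5 RPKM in replicate 2 and 42.2 RPKM in replicate 1. The difference, Slc38a2 minus Slc38a1, was -0.06 ± 0.03 (SD, n = 2) on the log2(RPKM + 1) scale. Slc38a1 was the higher in both libraries, by a gap so small that the gene lengths could decide it. Slc38a4, a system A carrier of liver and placenta, was listed at 0 in both. Slc38a1, Slc38a2 and Slc38a4 are direct neighbours on chromosome 15, with no other protein-coding gene between them in RefSeq. The system N carriers were near 0, with Slc38a3 listed at 0 and Slc38a5 at 0.0892 RPKM in replicate 2 and 0.110 RPKM in replicate 1. Slc1a5, Slc38a1 and Slc38a2 together summed to 127 RPKM in replicate 2 and 174 RPKM in replicate 1, of which Slc1a5 held 52.0% in replicate 2 and 50.7% in replicate 1.

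The Slc36 family and the lysosomal carriers of Slc38 were expressed over a wide range. Slc36a1 encodes PAT1, which moves small neutral amino acids with protons out of lysosomes, and stood at 46.7 RPKM in replicate 2 and 62.1 RPKM in replicate 1. Slc36a4, its relative of higher affinity, stood at 2.29 RPKM in replicate 2 and 1.498 RPKM in replicate 1, and Slc36a1 minus Slc36a4 was 4.26 ± 0.57 (SD, n = 2) on the log2(RPKM + 1) scale. Slc36a2 stood at 1.58 RPKM in replicate 2 and 0.583 RPKM in replicate 1, and Slc36a3, a gene of testis, at 0.272 RPKM in replicate 2 and 0.187 RPKM in replicate 1. Slc36a3, Slc36a2 and Slc36a1 are direct neighbours on chromosome 11, so the highest and the lowest gene of the family lie within 1 cluster. Slc38a9 encodes the arginine sensor of the lysosome that activates mTORC1 and stood at 7.88 RPKM in replicate 2 and 4.62 RPKM in replicate 1. Slc38a7, whose product releases glutamine and asparagine from lysosomes, stood at 7.90 RPKM in replicate 2 and 8.97 RPKM in replicate 1. The 2 genes were level in replicate 2 and Slc38a7 was higher in replicate 1, so that Slc38a9 minus Slc38a7, at -0.41 ± 0.58 (SD, n = 2), was smaller than the spread.

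The remaining Slc38 and the Slc43 genes included some of the highest and least studied members. Slc38a10 stood at 52.8 RPKM in replicate 2 and 49.3 RPKM in replicate 1. Slc38a6 stood at 4.24 RPKM in replicate 2 and 7.19 RPKM in replicate 1 and overlaps Trmt5, which stood at 3.81 RPKM in replicate 2 and 5.31 RPKM in replicate 1. Slc38a8 rested on at least 2 reads, both in replicate 1, and Slc38a11 was listed at 0. Slc43a2 encodes LAT4, which lets branched-chain amino acids, methionine and phenylalanine pass down their gradient, and stood at 51.7 RPKM in replicate 2 and 26.7 RPKM in replicate 1. Slc43a1, encoding the related LAT3, stood at 1.37 RPKM in replicate 2 and 1.16 RPKM in replicate 1, and Slc43a2 minus Slc43a1 was 4.08 ± 0.56 (SD, n = 2). Slc43a3 stood at 35.0 RPKM in replicate 2 and 46.8 RPKM in replicate 1. Its product carries purine nucleobases rather than amino acids, and Slc3a2 is no carrier itself, so the family names take in 2 highly expressed genes that are not amino acid transporters in the strict sense. Slc43a1 and Slc43a3 lie on chromosome 2 with 1 protein-coding gene between them.

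Most neighbours in the order of levels did not differ beyond their spread. Of 20 pairs of neighbours in the order of the 21 members at 1 RPKM or more in both libraries, 3 differed beyond 2 SD of the difference with the same sign in both libraries. These were Slc7a8 over Slc7a5, Slc38a1 over Slc38a2 and Slc38a2 over Slc7a1. The other 17 pairs did not differ beyond that spread, among them Slc7a6 and Slc7a2, where Slc7a2 was the higher in replicate 2 and Slc7a6 in replicate 1. Of the 10 pairs of related carriers compared, 8 differed beyond 2 SD, and Slc7a1 with Slc7a2 and Slc38a9 with Slc38a7 did not. An SD from 2 values is itself uncertain, so a difference beyond 2 SD is a description and not a test.

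**Figure D2:**
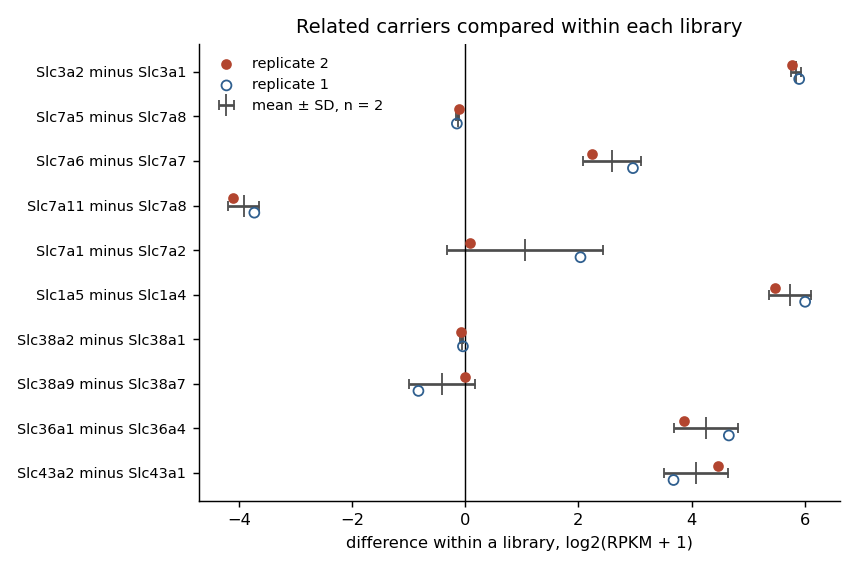
Differences between related carriers within each library on the log2(RPKM + 1) scale, for replicate 2 (filled), replicate 1 (open) and their mean with SD (n = 2). Slc7a1 minus Slc7a2 is spread most widely, at 0.08 in replicate 2 and 2.04 in replicate 1, while Slc7a5 with Slc7a8 and Slc38a2 with Slc38a1 lie next to 0.

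Between the libraries, Slc7a2 had the largest log2 ratio of the transporters. Over 22 members whose mean reached 1 RPKM, Slc7a2 alone (4.55%) was at least 2-fold higher in replicate 2 on the log2(RPKM + 1) scale, beside 5.30% of 10896 genes. None was 2-fold higher in replicate 1, beside 0.734% of genes, so neither share set the transporters apart from the background. By any amount, 8 members were higher in replicate 2 (36.4%, beside 44.1% of genes) and 14 in replicate 1 (63.6%, beside 55.9%). As a log2 ratio, replicate 2 over replicate 1, the median of the 22 members was -0.09 and that of all genes -0.05. Slc36a2 entered this set through replicate 2 only.

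**Figure D3:**
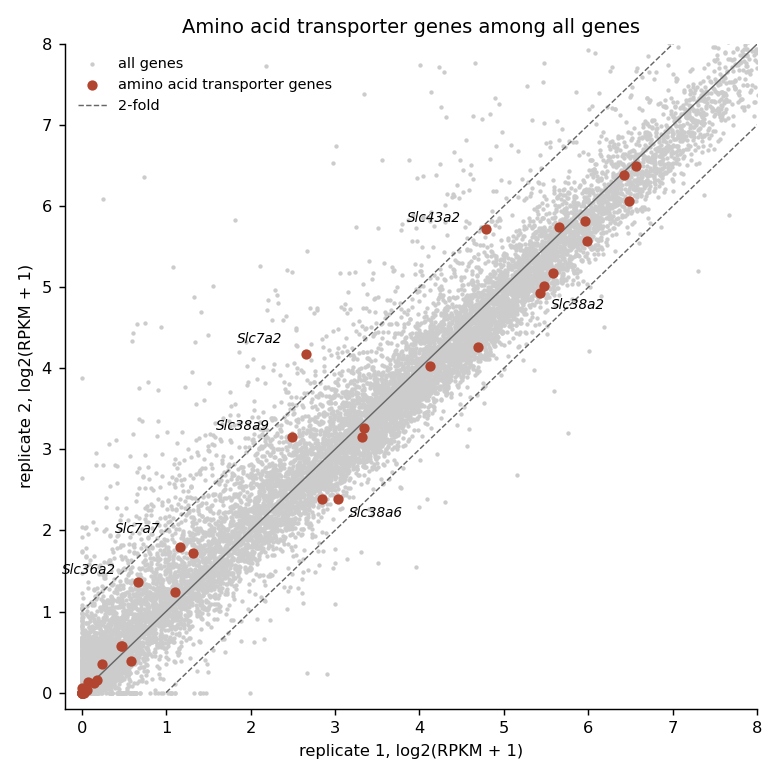
Levels in replicate 2 against replicate 1 as log2(RPKM + 1) for all genes (grey) and the 42 transporter genes (red), with equality (solid) and 2-fold (dashed) lines; genes above 8 on either axis are not drawn. Slc7a2 lies outside the 2-fold lines and Slc43a2 just inside.

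On the log2(RPKM + 1) scale, the members higher in replicate 2 were led by Slc7a2 and Slc43a2. The RPKM of Slc7a2 was 3.24-fold higher in replicate 2, with a 95% interval of 2.97 to 3.53 that covers counting error only, and its log2 ratio of 1.53 exceeded that of 97.7% of genes. For Slc43a2 the fold was 1.94 (1.84 to 2.04), from at least 3956 reads in replicate 2 and 2123 in replicate 1, a log2 ratio of 0.93 above 94.0% of genes. Slc38a9 was 1.71-fold higher (1.52 to 1.92) and Slc36a4 1.53-fold (1.19 to 1.96). Slc7a7 was 1.997-fold higher (1.62 to 2.47) and Slc36a2 2.71-fold (1.92 to 3.90), both at low levels where a pseudocount of 1 lowers the log2 ratio to 0.63 for Slc7a7 and 0.71 for Slc36a2. Slc38a10, at 1.07-fold (1.018 to 1.13), and Slc43a1, at 1.18-fold (0.946 to 1.48), were nearly level. The summed levels of monocyte and macrophage, MHC class II, mast cell, basophil and glycolysis genes were higher in the same library, with the values given above, and their part in these differences was not tested.

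A second group was moderately higher in replicate 1 and close together in size. Slc38a2 was 1.43-fold higher in replicate 1 (95% counting interval 1.38 to 1.48), Slc38a1 1.39-fold (1.33 to 1.45), Slc7a1 1.37-fold (1.29 to 1.44), Slc1a5 1.34-fold (1.30 to 1.38), Slc43a3 1.34-fold (1.27 to 1.40) and Slc36a1 1.33-fold (1.26 to 1.41). The glutamine carriers Slc1a5, Slc38a1 and Slc38a2 are all in this group. Slc7a11 was 1.46-fold higher (1.34 to 1.59) and Slc38a6 1.70-fold (1.51 to 1.90), and the log2 ratio of Slc38a6 was below that of 97.0% of genes. Slc3a2 at 1.11-fold (1.07 to 1.14), Slc7a8 at 1.05-fold (1.01 to 1.10) and Slc7a5 at 1.024-fold (0.987 to 1.06) were closer to equal. Whether the leucine exchangers and the glutamine carriers differ in this was not tested. Of the 7 primary granule genes, 6 were higher in replicate 1 (beside 55.9% of all genes), with sums of 4234 RPKM in replicate 2 and 5555 RPKM in replicate 1, and their part in these differences was not tested.

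**Figure D4:**
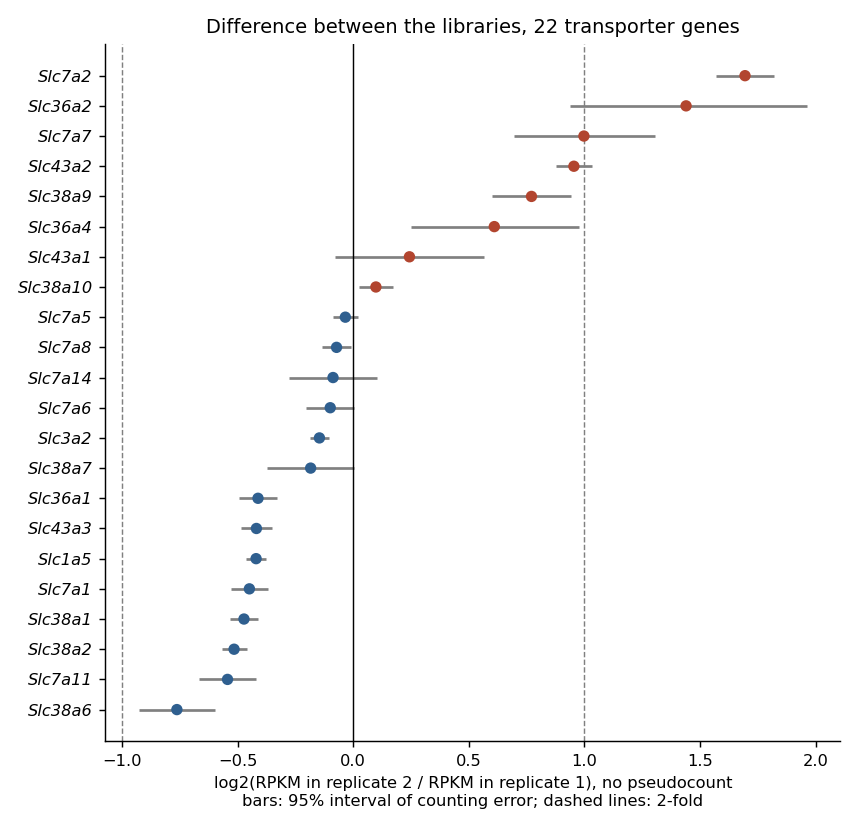
Log2 ratio of RPKM, replicate 2 over replicate 1, without a pseudocount, for the 22 transporter genes whose mean reached 1 RPKM; bars are 95% intervals of counting error and dashed lines mark 2-fold. Slc7a2 is at the top, with a 3.24-fold higher value in replicate 2, and Slc38a6 at the bottom, 1.70-fold higher in replicate 1.

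The listed genes of the response to amino acid shortage were all expressed. Of 20 genes of the ATF4 response, all 20 were at 1 RPKM or more in both libraries, beside 43.5% of all genes. Cebpb was the highest by mean, at 169 RPKM in replicate 2 and 139 RPKM in replicate 1. Phgdh, the first enzyme of serine synthesis, followed at 69.4 RPKM in replicate 2 and 164 RPKM in replicate 1. Atf4 itself stood at 104 RPKM in replicate 2 and 117 RPKM in replicate 1. The largest log2 ratios of the list were 3.55 for Vldlr, a lipoprotein receptor, and -1.23 for Phgdh. Atf3 and Vldlr were 2-fold higher in replicate 2 (beside 5.30% of all genes) and Phgdh in replicate 1 (beside 0.734%). In all, 9 of the 20 genes were higher in replicate 2 (beside 44.1% of all genes) and 11 in replicate 1 (beside 55.9%), and the median log2 ratio of the list was -0.09.

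Most genes of the machinery that senses amino acids at the lysosome were expressed. Of its 28 genes, 27 were at 1 RPKM or more in both libraries, beside 43.5% of all genes. The exception was Sesn3 at 0.884 RPKM in replicate 2 and 0.590 RPKM in replicate 1. The Ragulator genes Lamtor4, at 232 RPKM in replicate 2 and 235 RPKM in replicate 1, Lamtor1, at 185 RPKM in replicate 2 and 162 RPKM in replicate 1, and Lamtor2, at 151 RPKM in replicate 2 and 156 RPKM in replicate 1, were the highest. The Ragulator complex anchors the Rag GTPases, with which Slc38a9 acts. No gene of this list was 2-fold higher in replicate 2 (beside 5.30% of all genes). Fnip2, a partner of folliculin, was 2-fold higher in replicate 1 (beside 0.734%), at 10.5 RPKM in replicate 2 and 22.1 RPKM in replicate 1. By any amount, 6 of the 27 were higher in replicate 2 (beside 44.1% of all genes) and 21 in replicate 1 (beside 55.9%). The log2 ratios ran from -1.01 for Fnip2 to 0.35 for Sesn1, and the median was -0.08.

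Of the 5 pathway lists, the enzymes that use imported amino acids held the widest range of differences. Odc1, which makes putrescine from ornithine, stood at 242 RPKM in replicate 2 and 282 RPKM in replicate 1, Sat1 of polyamine breakdown at 139 RPKM in replicate 2 and 191 RPKM in replicate 1, and Glud1, glutamate dehydrogenase, at 165 RPKM in replicate 2 and 160 RPKM in replicate 1. Arg1, the arginase that splits arginine into ornithine and urea, stood at 166 RPKM in replicate 2 and 9.18 RPKM in replicate 1, a log2 ratio of 4.04. Slc7a2, the arginine carrier, was thus higher in the same library as Arg1, as were the genes of monocytes and macrophages, mast cells and basophils by their sums, whose part in this was not tested. The largest ratio the other way was that of Bcat1, the cytosolic aminotransferase of branched-chain amino acids, at 17.5 RPKM in replicate 2 and 63.6 RPKM in replicate 1 and a log2 ratio of -1.81. Bcat1 and the branched-chain carrier Slc43a2 lay on opposite sides. Of the 27 genes, 22 were at 1 RPKM or more in both libraries, beside 43.5% of all genes. Only these 22 had a mean of 1 RPKM or more and were compared. Of them, Arg1, Tph1 of serotonin synthesis and Ass1 of arginine synthesis were 2-fold higher in replicate 2 (beside 5.30% of all genes). Bcat1 alone was 2-fold higher in replicate 1 (beside 0.734%), and the median log2 ratio was -0.18. Nos2 lay under that mean and was not compared, at 1.57 RPKM in replicate 2 and 0.0533 RPKM in replicate 1. By any amount, 10 of the 22 were higher in replicate 2 (beside 44.1% of all genes) and 12 in replicate 1 (beside 55.9%).

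A further list held 23 genes of carriers outside these families, most but not all of them carriers of amino acids or peptides. Of these, 10 were at 1 RPKM or more in both libraries, the same 43.5% as of all genes. Of the 11 whose mean reached 1 RPKM, 5 were higher in replicate 2 (beside 44.1% of all genes) and 6 in replicate 1 (beside 55.9%). Slc15a3 was 2-fold higher in replicate 2 (beside 5.30% of all genes), and Slc6a12 and Slc6a15 were 2-fold higher in replicate 1 (beside 0.734%). Slc6a6, the taurine carrier, stood at 70.4 RPKM in replicate 2 and 59.9 RPKM in replicate 1 and was the highest of these genes. Slc16a10, a carrier of aromatic amino acids, stood at 13.5 RPKM in replicate 2 and 12.9 RPKM in replicate 1, and Slc15a3, a peptide carrier of the lysosome, at 19.6 RPKM in replicate 2 and 6.17 RPKM in replicate 1 with the largest log2 ratio, 1.52. The largest the other way was that of Slc6a15, a carrier of branched-chain amino acids and proline in brain, at 0.194 RPKM in replicate 2 and 1.83 RPKM in replicate 1. Slc6a15 was among the genes compared only through its level in replicate 1. The median log2 ratio of the list was -0.07.

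Genes of the NRF2 pathway, the oxidant response that also acts on Slc7a11, were mostly expressed. Of 18 genes, 16 were at 1 RPKM or more in both libraries, beside 43.5% of all genes. G6pdx stood at 167 RPKM in replicate 2 and 192 RPKM in replicate 1. Gsr, glutathione reductase, stood at 132 RPKM in replicate 2 and 196 RPKM in replicate 1. Prdx1, a peroxiredoxin, stood at 116 RPKM in replicate 2 and 117 RPKM in replicate 1. Like Slc7a11, 13 of the 16 genes were higher in replicate 1, beside 55.9% of all genes. Hmox1 and Maff were 2-fold higher in replicate 2 (beside 5.30% of all genes) and Nqo1 in replicate 1 (beside 0.734%). Nqo1, a quinone reductase, had the lowest log2 ratio at -1.01, and Maff, a small MAF factor, the highest at 1.08. The median was -0.10, close to the -0.05 of all genes.

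**Figure D5:**
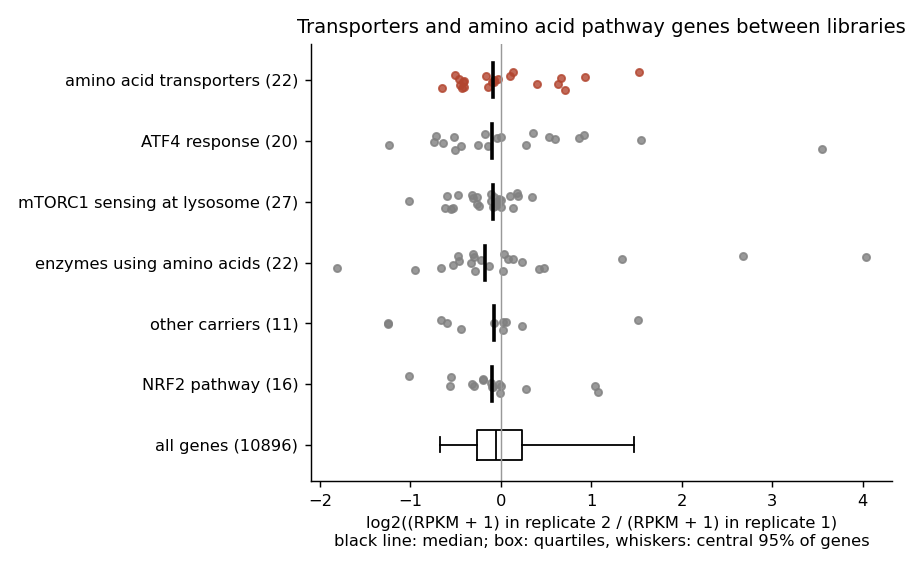
Ratios of RPKM + 1, replicate 2 over replicate 1, on a log2 scale for the 22 transporter genes, for genes of 5 amino acid pathway lists and, as a box with whiskers over the central 95%, for all 10896 genes whose mean reached 1 RPKM. The medians of the transporters (-0.09) and of the 5 lists (-0.18 to -0.07) lie close to that of all genes (-0.05), and Arg1 is the point farthest right.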

How the data were processed

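RPKM values were deposited by the authors in 1 table, whose 2 columns were matched to the labels by name. Per the submitters' processing notes, Trimmomatic 0.32, TopHat2, HTSeq and edgeR were used with build mm9. The sources used here do not give settings, annotation, strand or gene lengths. Of 24015 rows, 27 with names in the form of dates were left out. Read numbers were taken from the steps between RPKM values. A ratio of library sizes of 0.962, shared by 474 genes, and 38 genes with 1 transcript in GENCODE vM21 gave effective sizes of 28793666 reads in replicate 2 and 29941063 in replicate 1, which may include a normalisation factor. Read numbers are the smallest that fit and were found for all 34 members above 0. A read in a gene of 1 kb was worth 0.0347 RPKM in replicate 2 and 0.0334 RPKM in replicate 1. The recovery of reads and the fold counts were tested on simulated data. Intervals of ratios are exact binomial intervals at 95% from these reads and cover counting error only. The reads carry no molecular identifiers, so copies of the same molecule may be counted more than once and the intervals may be too narrow.

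Log2 ratios were taken with a pseudocount of 1 over genes whose mean reached 1 RPKM, and understate differences of low genes. Members and lists were chosen with earlier results of these data known. Values are given for every member of that level, and for each pathway list for its 3 highest genes and its largest ratio in each direction. Atf3, Tph1, Ass1, Nos2, Slc6a12, Hmox1 and Sesn3, and the overlapping genes, were named after their values were seen. Overlaps, neighbours and promoters came from RefSeq (GRCm38.p6), without coordinates of the files. Older symbols were matched for 2 list genes, and Trac was not found. The analysis used Python 3.11.15, pandas 2.3.3, numpy 2.4.6, scipy 1.17.1 and matplotlib 3.10.9.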

Additional observations from a re-analysis of the deposited data

How the results depend on the processing

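No paired analysis was possible because the labels give 1 group. Of the 106 alternative values for summary results, 94 stayed within the spread between libraries or within 1.5 times the count, and 12 moved. A value from 1 library always lies within the SD of 2 libraries. The single-library values of the pairs, the heavy chain ratio and the share of the 5 highest members were therefore bound to stay. So were those of the median member level. None of these values tells whether a result depends on the library. The median log2 ratios of the members and pathway lists ran from -0.18 to -0.07. The typical SD of a member between libraries, 0.29 on the log2 scale, is larger in size. A median log2 ratio that changed its sign was therefore still counted as having stayed. The median member level of 1.10 (log2) became 0.27 with a pseudocount of 0.1, 1.504 with each library rescaled to the same sum, 2.66 over members above 0 and 2.19 as a mean. With a pseudocount of 0.1, Slc3a2 minus Slc3a1 became 8.76, Slc1a5 minus Slc1a4 7.15 and Slc43a2 minus Slc43a1 4.78, and rescaling gave 6.51 and 6.19 for the first 2 of these. That follows from the smaller weight of the pseudocount beside low members. With a pseudocount of 0.1, 2 members were 2-fold higher in replicate 2, Slc36a2 having joined Slc7a2 at a log2 ratio of 1.30. The heavy chain ratio was -0.52 against Slc7a5 alone. The share of the 5 highest members was 59.4% without Slc3a2. Members at 1 RPKM or more numbered 22 without replicate 1, 21 without replicate 2 and 15 at a minimum of 5 RPKM. The sign of 3 median log2 ratios is not settled: that of the members was 0.04 as a mean, that of the enzymes 0.03 with no minimum level, and that of the other carriers 0.02 at a minimum of 5 RPKM. Values of 3 reads or fewer, worth about 0.1 RPKM in a gene of 1 kb, cannot be told from 0.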
